A study of Homo sapiens with 10 samples.

Results

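The genes described here are 56 genes of mitosis: the cyclins and kinases that start it, the checkpoint that times it, the kinetochores and motors that move chromosomes, and the proteins that split the cell. They were chosen by symbol from general knowledge of mitosis and not by a rule on measured values, but with earlier results of these data known. All 56 were found among the 57736 gene IDs of the count table, none had 0 counts in any sample, and all passed the filter on low counts. The lowest count of any of them in any sample was 6, for CDC25C.

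The samples were 10 RNA-seq libraries of IMR90, an established line of human fetal lung fibroblasts, in 5 groups of 2 samples. The groups were control, senescent control (titled senescent with a control knockout), senescent METTL3 knockout, and that knockout with a knock-in of either wild type or mutant METTL3. Per the labels' protocol, cells received a retrovirus that was empty or carried RAS, an oncogene whose expression drives fibroblasts into the lasting arrest called senescence. At day 4 they were transfected with siRNA, on the next day siRNA was given again together with the lentivirus of the knock-in, and RNA was taken 48 hours later. The word knockout is the titles' word for what the protocol describes as siRNA. In the column names, control is marked ctr and siCTR, senescent control RAS and siCTR, and the knockout and knock-ins RAS and siMETTL3. Read so, the control group also received a control siRNA. METTL14 is the gene in the protocol text, but the titles and the table's column names say METTL3, and no source used here describes the METTL3 mutant. Columns of the knockout samples are marked vec and columns of senescent control are not, so differences of the knockout and the knock-ins from senescent control may also reflect a lentivirus. METTL3 is the catalytic subunit of the methyltransferase that places the m6A mark on RNA. The labels do not say whether the 2 samples of a group came from separate cultures, so the p-values rest on a spread between samples that may be technical.

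Mitosis starts when cyclin B and CDK1 become active, and it ends when the anaphase-promoting complex (APC/C), an enzyme that tags proteins for destruction, removes cyclin B and securin. In between, the spindle checkpoint holds the APC/C back until every kinetochore, the protein plate on each centromere, is attached to spindle microtubules. The genes for these proteins are transcribed together in late G2 phase, under the MuvB complex, which binds a promoter element called CHR, together with B-MYB and FOXM1, and under NF-Y, which binds CCAAT boxes. In resting and senescent cells the same MuvB core sits in the repressive DREAM complex. Their RNA is therefore widely used as a sign of how many cells in a culture are dividing. In a bulk sample, fewer cells in G2 and mitosis and less RNA per cell cannot be told apart.

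The promoters of 7 of these genes are shown because they carry the elements that most of the group shares, and because 3 of the 7 behaved unlike the rest or lack one element. Each line gives the 150 bases that end just before the RefSeq gene start on GRCh38.p14, read 5′ to 3′ on the gene's strand, with capitals marking a CHR element (TTTGAA or TTCGAA) or a CCAAT box on either strand (TTCAAA and ATTGG are the reverse forms). CCNB2 encodes cyclin B2 (chr15:59104996-59105145, plus strand), PLK1 a kinase of spindle poles (chr16:23678739-23678888, plus strand), CDC20 the activator of the APC/C (chr1:43358831-43358980, plus strand) and MKI67 the chromosome surface protein Ki-67 (chr10:128126424-128126573, minus strand). KIF20A encodes a kinesin of the cleavage furrow (chr5:138178962-138179111, plus strand), CKS2 a small CDK-binding subunit (chr9:89311045-89311194, plus strand) and ECT2 the exchange factor that starts furrowing (chr3:172750576-172750725, plus strand). In MKI67 the second CHR element and an ATTGG share letters and are printed as 1 run of capitals.
CCNB2: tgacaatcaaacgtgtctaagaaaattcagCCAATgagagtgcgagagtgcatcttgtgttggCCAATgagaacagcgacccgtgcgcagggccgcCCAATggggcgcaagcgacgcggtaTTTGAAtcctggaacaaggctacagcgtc
PLK1: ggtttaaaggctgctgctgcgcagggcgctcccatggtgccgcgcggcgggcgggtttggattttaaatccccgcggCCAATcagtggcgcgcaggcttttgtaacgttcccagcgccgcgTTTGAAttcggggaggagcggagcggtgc
CDC20: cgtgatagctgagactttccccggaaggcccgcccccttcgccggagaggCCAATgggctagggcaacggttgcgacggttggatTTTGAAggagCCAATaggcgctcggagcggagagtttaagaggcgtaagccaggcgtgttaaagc
MKI67: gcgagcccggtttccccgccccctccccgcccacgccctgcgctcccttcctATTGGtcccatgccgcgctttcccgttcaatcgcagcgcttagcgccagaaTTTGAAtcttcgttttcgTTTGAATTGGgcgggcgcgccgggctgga
KIF20A: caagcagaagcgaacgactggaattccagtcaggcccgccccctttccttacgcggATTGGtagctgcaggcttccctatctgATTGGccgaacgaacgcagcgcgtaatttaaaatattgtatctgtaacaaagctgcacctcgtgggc
CKS2: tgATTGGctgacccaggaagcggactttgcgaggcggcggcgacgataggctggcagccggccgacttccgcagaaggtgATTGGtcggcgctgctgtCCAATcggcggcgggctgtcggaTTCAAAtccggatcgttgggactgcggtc
ECT2: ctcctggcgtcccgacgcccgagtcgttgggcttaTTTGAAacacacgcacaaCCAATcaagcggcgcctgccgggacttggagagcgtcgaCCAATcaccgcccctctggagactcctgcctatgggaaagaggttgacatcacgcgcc

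Of the 56 genes, 47 had an entry in the RefSeq promoter table, with a window of 250 bases before to 50 after the start, and 9 had none (AURKA, BUB3, TTK, TPX2, BIRC5, CDCA2, UBE2C, FOXM1 and RACGAP1). A CHR element stood in 34 of the 47 windows (72.3%), against 16.6% of the first listed window of each of 27305 genes. A CCAAT box stood in 37 windows (78.7%, against 35.7%), and 24 windows held 2 or more (51.1%, against 11.3%). Both elements stood in 30 windows (63.8%, against 6.58%). An E2F core (TTCGCGC or TTGGCGC, either strand) stood in 6 windows (12.8%, against 5.18%). The CHR matches lay close to the start: 13 of the 46 matches began 30 to 21 bases before it. Counting only the last 60 bases before the start, a distance chosen after these positions were seen, 44.7% of the members and 3.16% of all genes had a CHR match. CCAAT matches lay further out, with the fullest interval, 14 of 82 matches, at 60 to 51 bases before the start. CDC25B, CDC25C, CENPE, KIF2C, CKAP2 and TACC3 had none of the 3 motifs in the window. KIF20A had 2 CCAAT boxes and no CHR match, and ECT2 had a CHR match and 2 CCAAT boxes in the bases shown. A match describes the letters only: it is no proof of a bound site, and a window without one says only that these letters are absent from it.

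**Figure D1:**
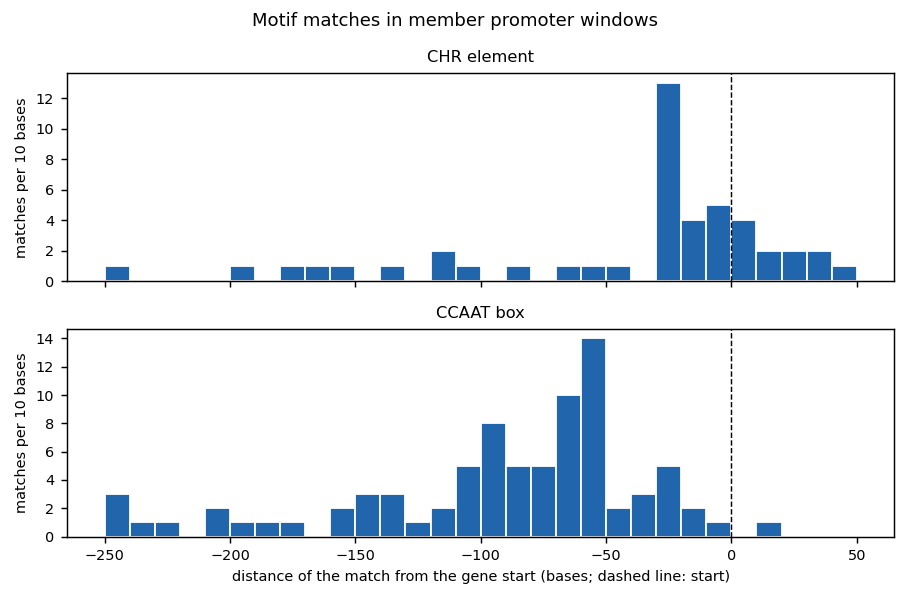
Positions of CHR elements (top) and CCAAT boxes (bottom) in the promoter windows of the 47 genes with an entry. The x axis is the distance of the match from the gene start in bases, the y axis the number of matches per 10 bases; CHR matches peak at 30 to 21 bases before the start (13 matches) and CCAAT matches at 60 to 51 bases (14 matches).

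Total counts per sample ran from 16293975 to 23570266, and METTL3 alone took 5.86% to 14.2% of the counts of the 4 knock-in samples. METTL3 stood at 72.7 and 81.4 CPM (counts scaled to a common library total with TMM factors) in control, 47.3 and 57.3 in senescent control, 23.2 and 28.9 in the knockout, 58385 and 58125 in the wild type knock-in and 114107 and 147774 in the mutant knock-in. The 5 groups did not overlap, so the knockout kept part of its METTL3 RNA, and the mutant stood above the wild type. The difference between senescent control and control (log2 -0.56, edgeR adjusted p 0.00861) lost its call without control replicate 1 (-0.62, adjusted p 0.0588), control replicate 2 (-0.42, 0.135) or senescent control replicate 1 (-0.4, 0.114). HRAS, one of the RAS genes, stood at 14.6 to 14.7 CPM in control, 61.0 to 61.3 in senescent control, 39.5 to 40.8 in the knockout, 43.4 to 48.8 in the wild type knock-in and 23.7 to 29.8 in the mutant knock-in, and its part in the results below was not tested. The 10 fibroblast markers summed to 15732 to 19298 CPM in control and to 5883 to 6678 CPM in the mutant knock-in, with the other groups between. Not every marker followed this sum. LUM stood at 22.0 and 31.4 CPM in control, 77.8 and 73.4 in the wild type knock-in and 53.7 and 54.2 in the mutant knock-in. PDGFRA stood at 259 and 305 CPM in control and 333 and 335 in senescent control. The summed CPM of the 6 leukocyte markers ran from 0.963 in control to 9.44 in the mutant knock-in, with CD3E at 0 in all samples, and that of the 6 epithelial markers from 2.56 to 4.99, with KRT5 at 0 in all. Of the endothelial markers, TEK stood at 17.1 to 28.7 CPM and CDH5 at 0 in every sample outside the mutant knock-in. KDR stood at 0.417 to 3.17 CPM and EMCN at 0 to 0.507, both highest in the mutant knock-in, where TEK was not highest. The part of these markers in the results was not tested. The spread was widest between the 2 control samples: their chi-square per gene was 34.4, and that of the other 4 pairs was 5.07 to 7.16.

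Added over the 56 genes, the level was 3871 and 4508 CPM in control, 905 and 995 in senescent control, 1746 and 1558 in the METTL3 knockout, 710.5 and 708 in the wild type knock-in and 854 and 929 in the mutant knock-in. The sum was highest in control, the knockout stood between control and senescent control, and the wild type knock-in was lowest. Senescent control and the mutant knock-in overlapped in this sum. The median gene stood at 15.9% of its control mean in senescent control, 33.3% in the knockout, 11.1% in the wild type knock-in and 17.0% in the mutant knock-in. In each of the 4 groups the lowest gene was KIF20A, at 4.89%, 12.6%, 2.15% and 3.28% of its control mean.

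**Figure D2:**
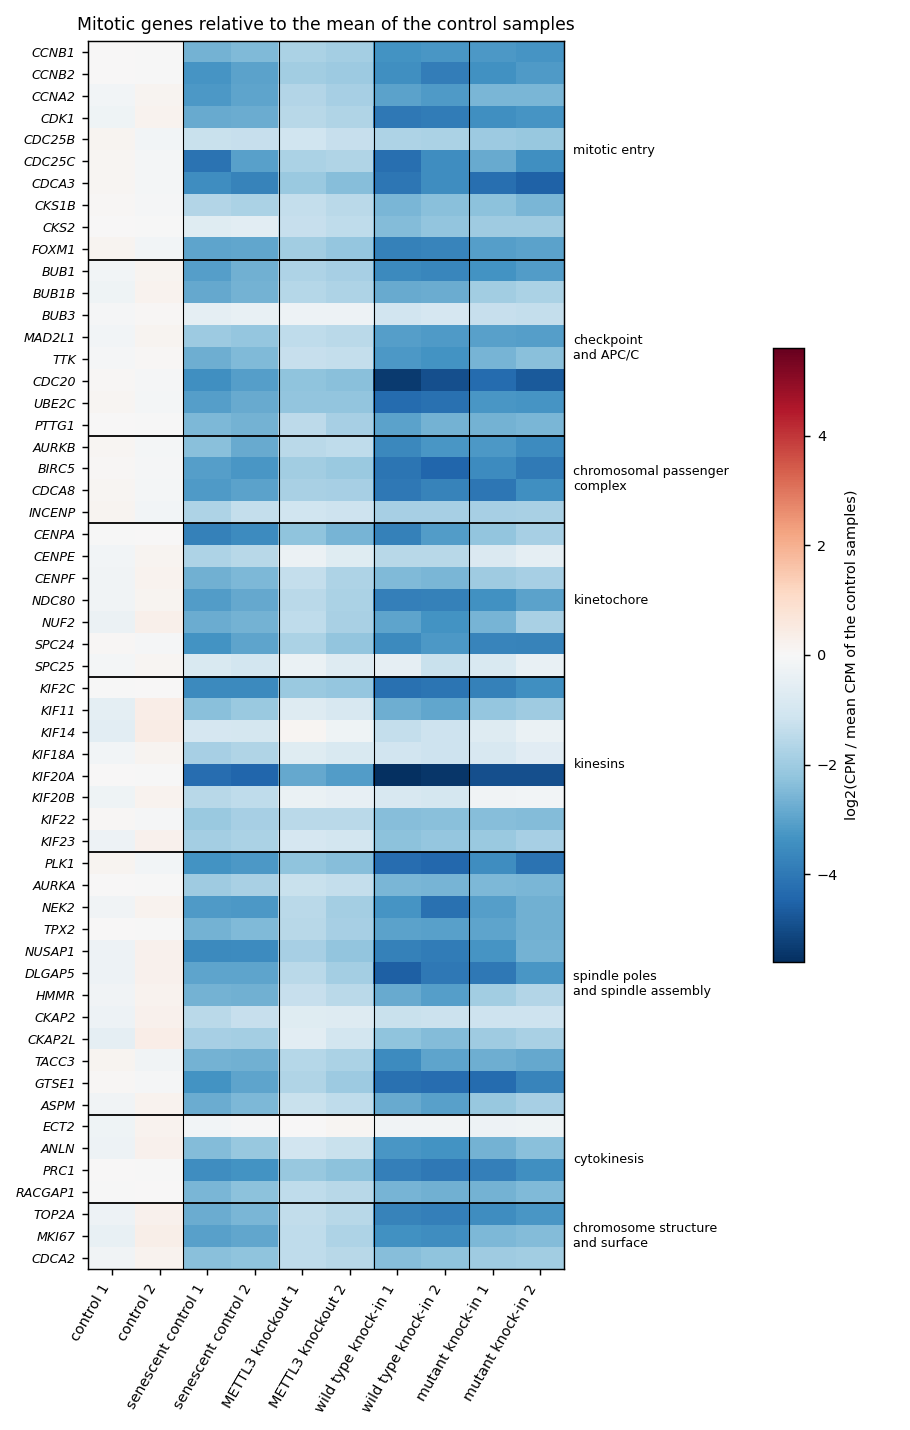
Level of each of the 56 genes (rows, grouped by role) in each of the 10 samples (columns), as log2 of CPM over the mean CPM of the 2 control samples; blue is lower and red higher. The knockout columns are paler than those of senescent control, the knock-in columns are darker than those of the knockout for most genes, and ECT2 stays near 0 throughout.

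In senescence almost the whole group was lower. Against control, 55 of the 56 genes fell and none rose in senescent control, where 25.3% of all 16760 genes tested were called lower and 19.7% higher (edgeR quasi-likelihood test, Benjamini-Hochberg adjusted p under 0.05). The median log2 change was -2.65, against -0.03 over all genes. Here and in the comparisons of the knockout with control and of each knock-in with the knockout, the members that rose numbered 0 in edgeR, also at an unadjusted p under 0.05, and 0 in DESeq2. KIF20A, the furrow kinesin, went from 107 and 103 CPM in control to 5.43 and 4.84 in senescent control, a log2 change of -4.36 (SE 0.12, edgeR adjusted p 2.45e-10) and the largest fall of the 56. CENPA, the histone variant that marks centromeres, went from 8.36 and 8.51 to 0.603 and 0.73 CPM, a change of -3.64 (SE 0.25, edgeR adjusted p 2.71e-07). CDCA3, a trigger of mitotic entry, went from 20.4 and 17.9 to 1.7 and 1.42 CPM, a change of -3.63 (SE 0.20, edgeR adjusted p 3.73e-08). In each of the 3 genes both senescent samples lay far below both control samples. The gene without a call was ECT2, at 73.5 and 102 CPM in control and 79.2 and 83.8 in senescent control (-0.1, SE 0.12, edgeR adjusted p 0.528), with both senescent samples inside the range of the control samples. Without control replicate 2, ECT2 was called higher in senescent control (log2 0.20, adjusted p 0.0345), and without control replicate 1 all 56 genes were called lower. KIF14, a kinesin of the midbody, fell from 12.2 and 24.3 to 9.43 and 9.27 CPM (-0.96, SE 0.27, edgeR adjusted p 0.0165), and lost its call without control replicate 2 (log2 -0.33, adjusted p 0.094). It also did without either senescent sample, where its change stayed at -0.95 and -0.92 (0.0898 and 0.106).

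In the METTL3 knockout most of these genes were higher than in senescent control. Of the 56, 48 rose, 1 fell and 7 were not called, where 7.17% of all genes were called higher and 8.62% lower. Upper-quartile scaling moved the share of all calls that were higher from 45.4% to 54.7%. The median log2 change was 1.09, against 0.01 over all genes. CDC25C, a phosphatase that switches on CDK1, went from 0.384 and 0.822 CPM in senescent control to 1.96 and 2.14 in the knockout, a change of 1.72 (SE 0.35, edgeR adjusted p 0.00526), and it has the fewest counts of the 56. Without senescent control replicate 1 its change was 1.32 (adjusted p 0.0606). NUSAP1, which bundles spindle microtubules, went from 4.72 and 4.89 to 15.4 and 12.4 CPM (1.52, SE 0.24, edgeR adjusted p 0.00166). NEK2, a kinase that separates centrosomes, went from 1.81 and 1.73 to 5.71 and 4.33 CPM (1.5, SE 0.27, edgeR adjusted p 0.00213). The knockout and senescent control samples of these 3 genes did not overlap. The gene that fell was CKS2, from 33.2 and 34.9 to 21.4 and 19.7 CPM (-0.73, SE 0.10, edgeR adjusted p 0.000425). It also fell from control to senescent control (-0.64, SE 0.10, edgeR adjusted p 0.000223). The 7 genes without a call were CDC25B (0.05), ECT2 (0.16), BUB3 (0.19), CKS1B (0.3), INCENP (0.37), SPC25 (0.4) and KIF14 (0.89), in log2. Leaving out 1 sample at a time gave 38 to 46 genes higher, and 38 of the 49 calls held under every alternative tried.

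The knockout did not stand at the control level. Against control, 53 of the 56 genes were lower in the knockout and none higher, with a median log2 change of -1.59, where 26.7% of all genes were called lower and 19.7% higher. Of these 53 calls, 47 held under every alternative tried. Upper-quartile scaling moved the share of all calls that were higher from 42.5% to 53.0%. KIF20A, at 14.5 and 11.9 CPM, lay furthest below control (-2.99, SE 0.11), followed by CENPA (-2.4, SE 0.22) and PLK1 (-2.31, SE 0.15). The genes without a call were SPC25, KIF14 and ECT2, at -0.54, -0.07 and 0.05 in log2. KIF14 rests on the control samples, which were 12.2 and 24.3 CPM: without the second it was called higher in the knockout (log2 0.56, adjusted p 0.0048).

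**Figure D3:**
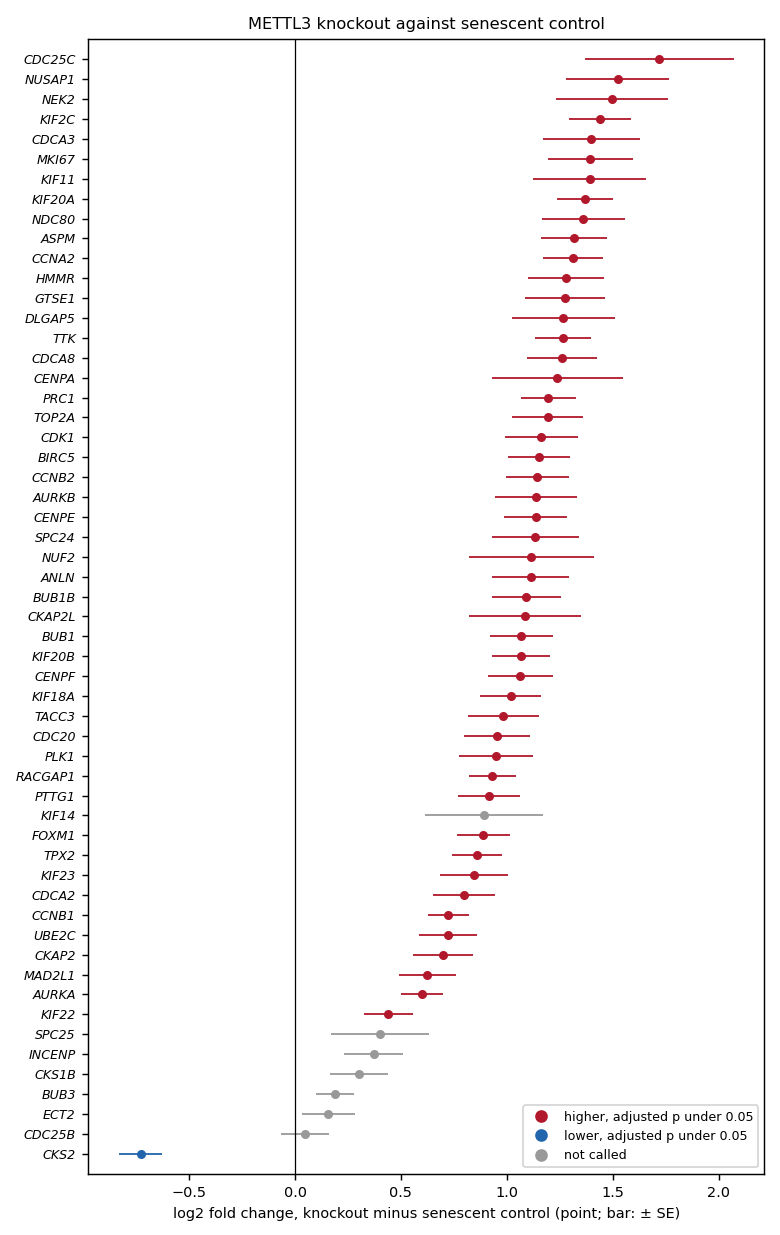
Log2 fold change of each of the 56 genes, METTL3 knockout minus senescent control, ordered by size; points are the fitted changes and bars ± 1 SE, coloured by call at adjusted p under 0.05. The 48 genes called higher lie at 0.44 to 1.72, and CKS2 at -0.73 is the gene called lower.

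In the wild type knock-in nearly the whole group was lower than in the knockout. METTL3 RNA stood there at 58385 and 58125 CPM, against 72.7 and 81.4 in control, far above the control level and not a return to it. Against the knockout, 53 of the 56 genes fell and none rose, with a median log2 change of -1.55, where 14.8% of all genes were called lower and 18.5% higher. Of these 53 calls, 49 held under every alternative tried. CDC20, the APC/C activator, went from 13.5 and 12.4 CPM in the knockout to 1.53 and 2.1 in the wild type knock-in (-2.81, SE 0.19, edgeR adjusted p 1.39e-06). DLGAP5, which steadies the microtubule fibres at kinetochores, went from 14.9 and 11.3 to 1.77 and 2.61 CPM (-2.55, SE 0.28, edgeR adjusted p 7.90e-05), and KIF20A from 14.5 and 11.9 to 2.14 and 2.38 CPM (-2.54, SE 0.15, edgeR adjusted p 4.58e-07). In these 3 genes every knock-in sample lay below every knockout sample. KIF18A (-0.38), SPC25 (-0.3) and ECT2 (-0.24) were not called. This comparison and that of the knockout with senescent control share the knockout samples.

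The mutant knock-in was also below the knockout. Of the 56 genes 46 fell and none rose, with a median log2 change of -1.08, where 24.3% of all genes were called lower and 24.1% higher. Of these 46 calls, 40 held under every alternative tried. CDC20 again changed most, to 3.22 and 2.47 CPM (-2.18, SE 0.18, edgeR adjusted p 2.65e-06). CDCA3 went from 4.56 and 3.65 to 1.01 and 0.823 CPM (-2.14, SE 0.26, edgeR adjusted p 4.16e-05), and GTSE1, a microtubule-binding protein of G2 and S phase, from 10.6 and 8.34 to 1.73 and 2.66 CPM (-2.11, SE 0.22, edgeR adjusted p 1.14e-05). The mutant and knockout samples did not overlap in any of the 3. The 10 genes without a call included CENPA, at 1.79 and 1.41 CPM in the knockout and 1.85 and 2.34 in the mutant knock-in (0.39, SE 0.26, edgeR adjusted p 0.239), and KIF20B (0.24, SE 0.13, edgeR adjusted p 0.149). 

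By role, the 10 genes of mitotic entry all fell in senescence and in both knock-ins against the knockout, and 7 rose and 1 fell in the knockout. For this and each role below, 25.3% of all genes were called lower in senescence, and in the knockout 7.17% higher and 8.62% lower. Against the knockout, 14.8% of all genes were called lower in the wild type knock-in and 24.3% in the mutant knock-in. CCNB1, cyclin B1, stood at 167 and 158 CPM in control, 26.1 and 29.1 in senescent control, 47.9 and 43.4 in the METTL3 knockout, 16 and 17.2 in the wild type knock-in and 17.5 and 16.6 in the mutant knock-in. Its knockout samples lay between control and senescent control, and both knock-ins lay below senescent control and overlapped each other. The log2 change was -2.55 (SE 0.10, edgeR adjusted p 2.35e-09) in senescence and 0.72 (SE 0.10, edgeR adjusted p 0.000312) in the knockout. CDK1, the kinase that cyclin B activates, stood at 27.2 and 37.1 CPM in control, 4.55 and 4.75 in senescent control, 10.8 and 10.1 in the METTL3 knockout, 2.01 and 2.1 in the wild type knock-in and 2.98 and 3.29 in the mutant knock-in. No 2 groups overlapped, and the wild type knock-in was the lowest. Its log2 change was 1.16 (SE 0.17, edgeR adjusted p 0.00062) in the knockout and -2.34 (SE 0.20, edgeR adjusted p 5.80e-06) in the wild type knock-in against the knockout. FOXM1, a transcription factor of G2 and M phase genes, stood at 122 and 97.7 CPM in control, 14.1 and 14.4 in senescent control, 28.3 and 24.6 in the METTL3 knockout, 7.93 and 8.35 in the wild type knock-in and 12.9 and 13.6 in the mutant knock-in. Its groups were separate too, with the mutant knock-in just under senescent control. FOXM1 changed by 0.89 (SE 0.13, edgeR adjusted p 0.000443) in the knockout and by -1.7 (SE 0.13, edgeR adjusted p 3.56e-06) in the wild type knock-in. CKS2 stood at 53.4 and 52.5 CPM in control, 33.2 and 34.9 in senescent control, 21.4 and 19.7 in the METTL3 knockout, 9.7 and 11.5 in the wild type knock-in and 13.5 and 13.4 in the mutant knock-in. The samples of the 5 groups of CKS2 were separate, and no other member was called lower in the knockout than in senescent control. CDC25B, a phosphatase that acts on CDK1, stood at 109 and 87 CPM in control, 41.3 and 40.5 in senescent control, 44.9 and 39.7 in the METTL3 knockout, 29.7 and 28.7 in the wild type knock-in and 24 and 22.5 in the mutant knock-in. It was called lower in senescence (-1.26, SE 0.11) and in each knock-in against the knockout, while the knockout and senescent control samples overlapped.

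**Figure D4:**
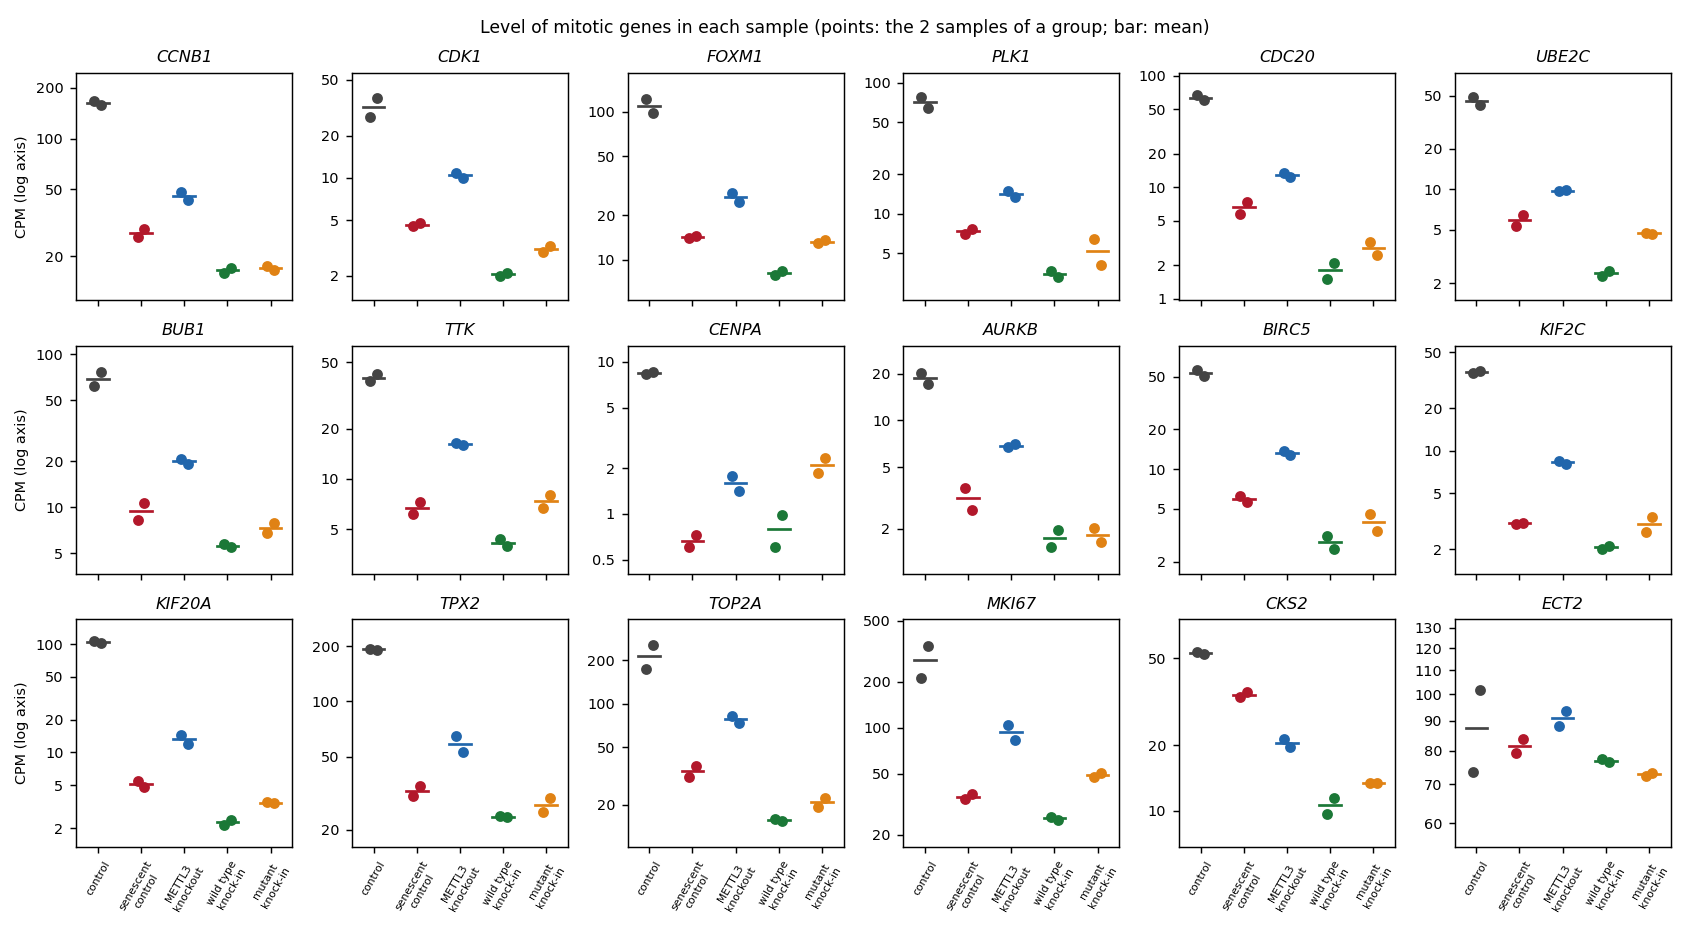
CPM of 18 of the genes in each sample (y, log axis) by group (x); points are the 2 samples of a group and the bar is their mean. For 16 of the 18 the knockout lies above senescent control and below control, while CKS2 is lower in the knockout than in senescent control and the groups of ECT2 lie close together.

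Of the 8 genes of the spindle checkpoint and the APC/C, all fell in senescence, 7 rose in the knockout, and all fell again in the wild type knock-in. BUB1, a checkpoint kinase, stood at 61.6 and 76 CPM in control, 8.23 and 10.6 in senescent control, 20.7 and 19 in the METTL3 knockout, 5.74 and 5.46 in the wild type knock-in and 6.8 and 7.85 in the mutant knock-in. TTK, the kinase also called MPS1 that starts the checkpoint at kinetochores, stood at 38.4 and 42.5 CPM in control, 6.14 and 7.21 in senescent control, 16.3 and 16 in the METTL3 knockout, 4.33 and 3.96 in the wild type knock-in and 6.68 and 7.98 in the mutant knock-in. In BUB1 the 5 groups were separate, and in TTK the mutant knock-in overlapped senescent control. BUB1 changed by 1.07 (SE 0.15, edgeR adjusted p 0.000422) and TTK by 1.27 (SE 0.13, edgeR adjusted p 5.32e-05) in the knockout. CDC20 stood at 66.9 and 60.2 CPM in control, 5.81 and 7.44 in senescent control, 13.5 and 12.4 in the METTL3 knockout, 1.53 and 2.1 in the wild type knock-in and 3.22 and 2.47 in the mutant knock-in. UBE2C, the ubiquitin-conjugating enzyme that works with the APC/C, stood at 48.4 and 42.1 CPM in control, 5.37 and 6.44 in senescent control, 9.7 and 9.86 in the METTL3 knockout, 2.26 and 2.47 in the wild type knock-in and 4.77 and 4.62 in the mutant knock-in. Both genes were lowest in the wild type knock-in, with no overlap of groups. UBE2C rose in the knockout by 0.72 (SE 0.14, edgeR adjusted p 0.00345), a call lost without senescent control replicate 1 (0.6, adjusted p 0.0513). BUB3, the adaptor that brings BUB1 to kinetochores and that also works outside mitosis, stood at 159.8 and 178 CPM in control, 119.9 and 126 in senescent control, 141 and 139 in the METTL3 knockout, 79.4 and 87.4 in the wild type knock-in and 68.5 and 66.9 in the mutant knock-in. It was called lower in senescence (-0.46, SE 0.09) and lower still in the mutant knock-in against the knockout (-1.05, SE 0.09). BUB1B, the checkpoint protein BUBR1, was the gene of this role not called in the mutant knock-in against the knockout (-0.19).

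The chromosomal passenger complex corrects faulty kinetochore attachments, and its 4 genes AURKB, BIRC5, CDCA8 and INCENP all fell in senescence. AURKB, its kinase Aurora B, stood at 20.3 and 17.3 CPM in control, 3.67 and 2.65 in senescent control, 6.7 and 7.09 in the METTL3 knockout, 1.53 and 1.96 in the wild type knock-in and 2.03 and 1.65 in the mutant knock-in. BIRC5, the subunit survivin, stood at 55.6 and 50.8 CPM in control, 6.25 and 5.62 in senescent control, 13.6 and 12.7 in the METTL3 knockout, 3.11 and 2.47 in the wild type knock-in and 4.59 and 3.42 in the mutant knock-in. In both genes the knockout was separate from all other groups, and the knock-ins lay below senescent control. AURKB changed by 1.14 (SE 0.19, edgeR adjusted p 0.00156) and BIRC5 by 1.15 (SE 0.15, edgeR adjusted p 0.000224) in the knockout. The scaffold INCENP had the smallest change of the 4 there (0.37, SE 0.14) and was not called. All 4 fell in each knock-in against the knockout, BIRC5 by -2.25 (SE 0.17) in the wild type and -1.71 (SE 0.16) in the mutant.

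The 7 kinetochore genes all fell in senescence, and 6 rose in the knockout, SPC25 being the exception. CENPA stood at 8.36 and 8.51 CPM in control, 0.603 and 0.73 in senescent control, 1.79 and 1.41 in the METTL3 knockout, 0.61 and 0.979 in the wild type knock-in and 1.85 and 2.34 in the mutant knock-in. Its mutant knock-in samples lay above the knockout samples, and its wild type knock-in samples overlapped senescent control. The rise of CENPA in the knockout, 1.24 (SE 0.31, edgeR adjusted p 0.0164), lost its call without either senescent control sample (0.127 and 0.0743) or without knockout replicate 1 (0.141), with log2 changes of 1.12, 1.39 and 1.05. NDC80, the microtubule-binding subunit of the kinetochore, stood at 19.9 and 25.8 CPM in control, 2.63 and 3.1 in senescent control, 8.08 and 6.78 in the METTL3 knockout, 1.59 and 1.63 in the wild type knock-in and 2.21 and 2.85 in the mutant knock-in. It changed by 1.36 (SE 0.20, edgeR adjusted p 0.000542) in the knockout and -2.2 (SE 0.22, edgeR adjusted p 1.87e-05) in the wild type knock-in. CENPE, the kinetochore motor that carries chromosomes to the middle of the spindle, stood at 52 and 65.4 CPM in control, 17.8 and 19.95 in senescent control, 46.3 and 36.8 in the METTL3 knockout, 20.01 and 20.1 in the wild type knock-in and 33.7 and 41 in the mutant knock-in. Its mutant knock-in samples overlapped the knockout, while the wild type knock-in samples lay just above those of senescent control. SPC25, a partner of NDC80, stood at 14.9 and 17 CPM in control, 8.72 and 7.94 in senescent control, 12.2 and 9.8 in the METTL3 knockout, 11.3 and 6.67 in the wild type knock-in and 8.89 and 12 in the mutant knock-in. The wild type knock-in samples of SPC25 lay on either side of those of senescent control. They overlapped those of the knockout and the mutant knock-in in part. The call of SPC25 in senescence (-0.94, SE 0.22) was lost without senescent control replicate 2, where the log2 change was -0.84. Of the 7 genes, 6 fell in the wild type knock-in against the knockout, where 14.8% of all genes were called lower. In the mutant knock-in 3 fell, where 24.3% of all genes were called lower. Of those 3, CENPF (-0.4, SE 0.15, edgeR adjusted p 0.05) sat at the threshold and lost its call under 8 of the alternatives.

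Of the 8 kinesins, the motors that build and shorten the spindle, all fell in senescence and 7 rose in the knockout. KIF2C, which takes tubulin off microtubule ends at kinetochores, stood at 35.5 and 36.7 CPM in control, 3.02 and 3.06 in senescent control, 8.43 and 8.08 in the METTL3 knockout, 2.01 and 2.1 in the wild type knock-in and 2.62 and 3.36 in the mutant knock-in. KIF20A stood at 107 and 103 CPM in control, 5.43 and 4.84 in senescent control, 14.5 and 11.9 in the METTL3 knockout, 2.14 and 2.38 in the wild type knock-in and 3.46 and 3.42 in the mutant knock-in. In KIF20A no groups overlapped, and in KIF2C the mutant knock-in overlapped senescent control. KIF2C changed by 1.44 (SE 0.15, edgeR adjusted p 4.55e-05) and KIF20A by 1.37 (SE 0.13, edgeR adjusted p 2.89e-05) in the knockout. KIF18A, which damps chromosome movement, stood at 36.3 and 45.6 CPM in control, 11.4 and 12.6 in senescent control, 26 and 22.7 in the METTL3 knockout, 19.3 and 18.2 in the wild type knock-in and 21.8 and 26.2 in the mutant knock-in, and KIF20B, a kinesin of late mitosis, at 34.3 and 46 CPM in control, 13.8 and 15 in senescent control, 31.5 and 29 in the METTL3 knockout, 21.4 and 20.5 in the wild type knock-in and 34.7 and 36.6 in the mutant knock-in. These 2 differ from the other kinesins in that both knock-ins lay above senescent control. KIF11, the motor that pushes the spindle poles apart, stood at 38.5 and 73.4 CPM in control, 11.1 and 13.3 in senescent control, 34.3 and 30.1 in the METTL3 knockout, 8.48 and 7.55 in the wild type knock-in and 12.6 and 14.1 in the mutant knock-in. The 2 control samples of KIF11 lay far apart, and its knockout samples lay just under the lower one.

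All 12 genes of spindle poles and spindle assembly fell in senescence, rose in the knockout and fell in the wild type knock-in against the knockout. PLK1, a kinase that acts from mitotic entry to cytokinesis, stood at 77.7 and 63.6 CPM in control, 7.02 and 7.67 in senescent control, 15 and 13.5 in the METTL3 knockout, 3.66 and 3.31 in the wild type knock-in and 6.38 and 4.05 in the mutant knock-in. TPX2, which activates Aurora A and nucleates microtubules, stood at 194 and 191 CPM in control, 30.4 and 34.4 in senescent control, 64.9 and 52.7 in the METTL3 knockout, 23.8 and 23.4 in the wild type knock-in and 25 and 29.6 in the mutant knock-in. In both genes the knock-in samples lay below those of senescent control. PLK1 changed by 0.95 (SE 0.17, edgeR adjusted p 0.00274) and TPX2 by 0.86 (SE 0.12, edgeR adjusted p 0.000376) in the knockout, and by -2.03 (SE 0.19) and -1.32 (SE 0.12) in the wild type knock-in. HMMR, a spindle-associated hyaluronan receptor, stood at 28.2 and 37.2 CPM in control, 5.15 and 5.02 in senescent control, 13.3 and 11.4 in the METTL3 knockout, 4.64 and 3.87 in the wild type knock-in and 8.53 and 10.5 in the mutant knock-in. ASPM, a protein of the spindle poles, stood at 138 and 182 CPM in control, 23.1 and 27.8 in senescent control, 67.7 and 59.7 in the METTL3 knockout, 22.9 and 19.3 in the wild type knock-in and 37.2 and 43.8 in the mutant knock-in. In HMMR and ASPM the mutant knock-in lay above senescent control and below the knockout. HMMR was the gene of this role not called in the mutant knock-in against the knockout (-0.38, SE 0.17, edgeR adjusted p 0.0816).

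The 4 genes of cytokinesis held the exception of the group. PRC1, which bundles the midzone of the spindle, stood at 126 and 120.4 CPM in control, 11.1 and 12.1 in senescent control, 28.5 and 24.9 in the METTL3 knockout, 8.6 and 7.74 in the wild type knock-in and 8.59 and 11.5 in the mutant knock-in. RACGAP1, which acts with the kinesin KIF23 to position the furrow, changed by -2.43 (SE 0.11) in senescence and by 0.93 (SE 0.11) in the knockout. ANLN, the furrow scaffold anillin, stood at 259.8 and 380.1 CPM in control, 59 and 73.1 in senescent control, 151 and 135 in the METTL3 knockout, 33.9 and 31.2 in the wild type knock-in and 50.6 and 63.3 in the mutant knock-in. ECT2, which RACGAP1 recruits to switch on RHOA, stood at 73.5 and 102 CPM in control, 79.2 and 83.8 in senescent control, 88.3 and 93.6 in the METTL3 knockout, 77.4 and 76.4 in the wild type knock-in and 72.4 and 73.3 in the mutant knock-in. ECT2 was called in none of the 8 comparisons, and its senescent control, knockout and wild type knock-in samples lay within the range of the 2 control samples, with both mutant samples just under it. The 3 remaining genes concern chromosomes and all fell, rose and fell again in the same 3 steps. TOP2A, the topoisomerase that untangles sister DNA, stood at 175 and 257 CPM in control, 31.3 and 37 in senescent control, 82.4 and 73.8 in the METTL3 knockout, 16 and 15.3 in the wild type knock-in and 19.2 and 22.4 in the mutant knock-in. MKI67 stood at 211 and 345 CPM in control, 34.2 and 36.9 in senescent control, 104 and 83.1 in the METTL3 knockout, 26.4 and 24.9 in the wild type knock-in and 47.9 and 50.9 in the mutant knock-in. In TOP2A the knock-ins lay below senescent control, while in MKI67 the mutant knock-in lay above it and the wild type below. TOP2A changed by 1.19 (SE 0.17, edgeR adjusted p 0.000693) and MKI67 by 1.39 (SE 0.20, edgeR adjusted p 0.00105) in the knockout.

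The 2 knock-ins were also compared with each other. The mutant was higher than the wild type for 13 of the 56 genes and lower for none, where 5.16% of all genes were called higher and 7.39% lower. At an unadjusted p under 0.05 in edgeR 29 genes were higher and 2 lower, and DESeq2 called 16 higher and 0 lower. Upper-quartile scaling moved the share of all calls that were higher from 41.1% to 57.7%, and 15 of the 56 genes were then higher. The median log2 difference was 0.43, and that over all genes was near 0. CENPA stood at 0.61 and 0.979 CPM in the wild type and 1.85 and 2.34 in the mutant knock-in (1.35, SE 0.29, edgeR adjusted p 0.0134), HMMR at 4.64 and 3.87 and 8.53 and 10.5 (1.17, SE 0.19, edgeR adjusted p 0.0045), and UBE2C at 2.26 and 2.47 and 4.77 and 4.62 (0.98, SE 0.18, edgeR adjusted p 0.00667). The other 10 were MKI67, ASPM, BUB1B, CENPE, TTK, ANLN, KIF20B, FOXM1, CENPF and CCNA2, with log2 differences from 0.52 to 0.95. The fitted difference was above 0 for 50 of the 56 genes. In 40 genes both mutant samples lay above both wild type samples, in 5 below, and in 11 they overlapped. How many of all genes were separated in this way, lay above 0 or passed at an unadjusted p was not counted. The largest difference below 0 was that of CDCA3, at 1.16 and 1.73 CPM in the wild type and 1.01 and 0.823 in the mutant (-0.67, SE 0.31, edgeR adjusted p 0.171). The calls, more than the size of the differences, depended on single samples: edgeR called 0 genes higher without wild type replicate 2 (19 at an unadjusted p under 0.05) or without mutant replicate 2 (18), 7 without wild type replicate 1 and 11 without mutant replicate 1. The median log2 difference of the 56 genes in these 4 fits was 0.35 to 0.48, and those of HMMR and UBE2C were 1.02 to 1.3 and 0.91 to 1.08. METTL3 RNA itself was higher in the mutant knock-in (log2 1.17, adjusted p 0.00127), and its part in the difference was not tested.

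**Figure D5:**
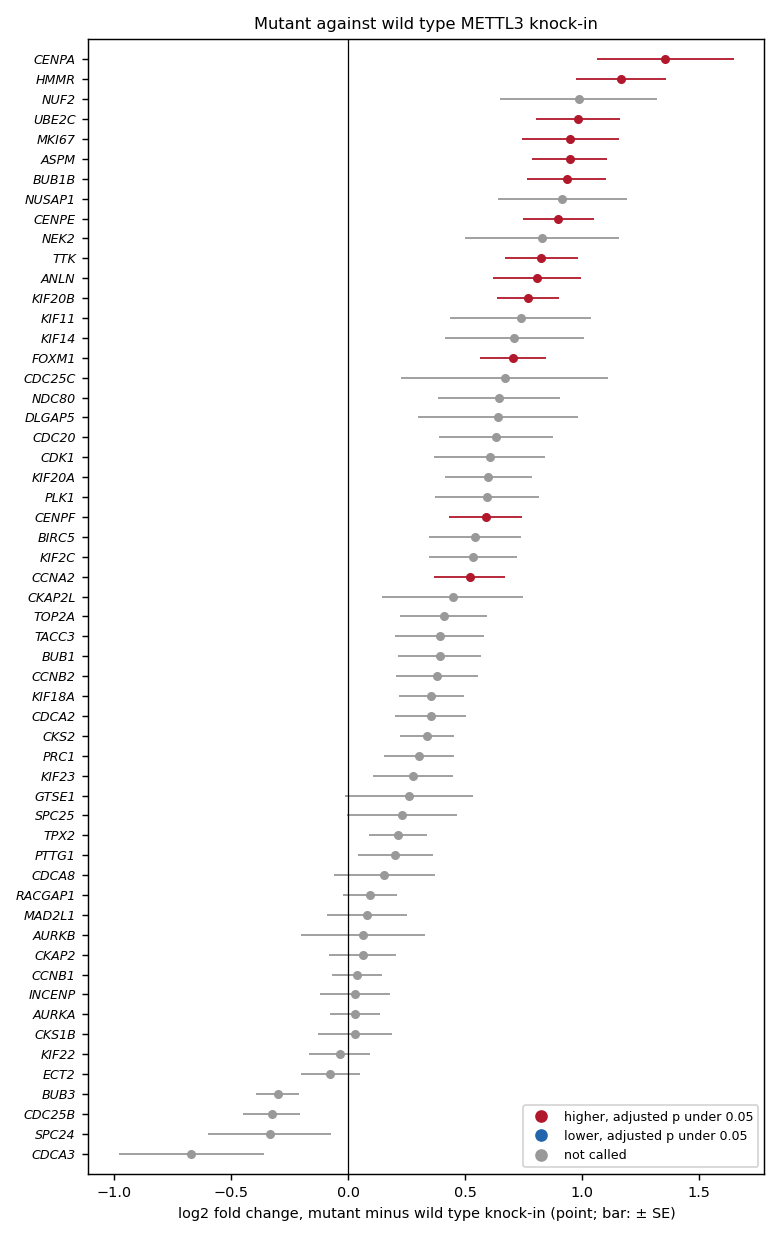
Log2 fold change of each of the 56 genes, mutant minus wild type METTL3 knock-in, ordered by size; points are the fitted changes and bars ± 1 SE, coloured by call at adjusted p under 0.05. The 13 genes called higher lie at 0.52 to 1.35, no gene was called lower, and 50 of the 56 points lie above 0.

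Against senescent control, which carried RAS and the control siRNA, the wild type knock-in was lower for 29 genes and higher for 2, with a median log2 change of -0.50, where 19.1% of all genes were called lower and 20.8% higher. Of these 31 calls, 18 held under every alternative tried. CDC20 fell most (-1.85, SE 0.21, edgeR adjusted p 3.01e-05), followed by CKS2 (-1.68, SE 0.11, edgeR adjusted p 5.99e-07) and UBE2C (-1.32, SE 0.17, edgeR adjusted p 8.33e-05). The genes that rose were KIF18A (0.64, SE 0.14, edgeR adjusted p 0.00397) and KIF20B (0.54, SE 0.14, edgeR adjusted p 0.00885). Both lost the call without senescent control replicate 1 (0.0565 and 0.0959), and KIF20B also without wild type replicate 1 (0.0641) or 2 (0.0509), with log2 changes of 0.45 to 0.54 in these fits. The mutant knock-in was lower than senescent control for 16 genes and higher for 9, with a median of -0.15, where 26.3% of all genes were called lower and 27.0% higher, so that the count of lower genes is near the background and that of higher genes is under it. The 9 were CENPA (1.63, SE 0.30, edgeR adjusted p 0.00064), KIF20B (1.3, SE 0.14, edgeR adjusted p 9.10e-06), KIF18A (0.99, SE 0.14), CENPE (0.98, SE 0.15), BUB1B (0.9, SE 0.17), HMMR (0.9, SE 0.19), ASPM (0.67, SE 0.16), CENPF (0.67, SE 0.16) and CCNA2 (0.51, SE 0.15). CCNA2, cyclin A2, stood at 71 and 87.9 CPM in control, 8.55 and 10.2 in senescent control, 25.3 and 21.6 in the METTL3 knockout, 10.01 and 8.81 in the wild type knock-in and 13.4 and 13.4 in the mutant knock-in. CENPF, a large protein of the outer kinetochore, stood at 142 and 186 CPM in control, 25.5 and 28.7 in senescent control, 64.5 and 49 in the METTL3 knockout, 29.6 and 27.8 in the wild type knock-in and 41.3 and 45 in the mutant knock-in, and BUB1B at 40.1 and 54.2 CPM in control, 6.53 and 7.44 in senescent control, 15.6 and 14.3 in the METTL3 knockout, 6.71 and 6.95 in the wild type knock-in and 12.2 and 13.9 in the mutant knock-in. In all 3 the mutant samples lay above those of senescent control, while the wild type samples overlapped them. The calls of CCNA2, CENPF and ASPM were lost without senescent control replicate 1 (0.139, 0.053 and 0.0585) or without mutant replicate 2 (0.109, 0.0647 and 0.0841), and that of CCNA2 also without mutant replicate 1 (0.0557), with log2 changes of 0.36 to 0.56 in these fits. CKS2 (-1.34, SE 0.11, edgeR adjusted p 1.13e-06), CDC20 (-1.22, SE 0.20, edgeR adjusted p 0.000232) and MAD2L1, which encodes the checkpoint protein MAD2 (-0.96, SE 0.15, edgeR adjusted p 0.000248), fell most. Of the 25 calls of the mutant knock-in against senescent control, 14 held under every alternative tried.

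Genes of the same machinery outside the 56 were counted in 8 lists, also drawn from general knowledge. Of 25 further kinetochore genes, 23 fell and 1 rose in senescence, 11 rose and none fell in the knockout, and 17 fell and 1 rose in the wild type knock-in. HJURP, the chaperone that loads CENPA, fell in senescence (log2 -3.06, SE 0.13), rose in the knockout (1.03, SE 0.14) and fell in the wild type knock-in (-2.19, SE 0.16), while CENPT, which links CENPA chromatin to the outer kinetochore, rose in senescence (0.38, SE 0.09). Of 11 checkpoint accessory genes, 10 fell and none rose in senescence, and 7 rose and 1 fell in the knockout, where SGO1, the guardian of sister cohesion, changed by 1.21 (SE 0.25). MAD2L1BP, which takes the checkpoint apart, fell in the knockout (-0.34, SE 0.11) and rose in the wild type (0.82, SE 0.11) and the mutant knock-in (1.2, SE 0.11). Of 18 APC/C and mitotic exit genes 8 fell and none rose in senescence, and 2 rose and none fell in the knockout. Those 2 were ESPL1, the separase that cuts cohesin (0.75, SE 0.15), and FBXO5, an APC/C inhibitor (0.73, SE 0.16). The median log2 change of this list in the knockout was 0.005, against 0.006 over all genes, so the list as a whole did not move there. Of 13 condensin and cohesin genes, 10 fell and 1 rose in senescence, and 5 rose and none fell in the knockout. Of 20 further spindle genes, 15 fell and 2 rose in senescence, and 5 rose and 1 fell in the knockout. Of 11 centriole and abscission genes, 8 fell and none rose in senescence, and 6 rose and none fell in the knockout. Of 10 genes of G2 kinase control, 7 fell and 1 rose in senescence, and 6 rose and 2 fell in the knockout. The backgrounds are those given above: 25.3% of all genes were lower and 19.7% higher in senescence, and 7.17% were higher and 8.62% lower in the knockout. In the wild type knock-in against the knockout, 14.8% of all genes were lower and 18.5% higher.

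The last list held 22 genes of DREAM, MuvB and E2F regulation, with CDK inhibitors among them. In senescence 15 fell and 3 rose, where 25.3% of all genes were lower and 19.7% higher. Of these, E2F8, a repressor of the E2F family (log2 -5.03, SE 0.44), CDKN2C, a CDK inhibitor (-4.57, SE 0.22), and E2F2 (-3.36, SE 0.62) fell most, and E2F7 (1.63, SE 0.08), the p53 target and CDK inhibitor CDKN1A (0.85, SE 0.10) and the senescence marker CDKN2A (0.67, SE 0.09) rose. In the knockout 6 rose and 3 fell, where 7.17% of all genes were higher and 8.62% lower. The largest rises were those of E2F8 (2.55, SE 0.57), CDKN2C (2.14, SE 0.27) and MYBL2, which encodes B-MYB (1.77, SE 0.23). The 3 that fell in the knockout were CDKN2A (-0.58, SE 0.09), E2F7 (-0.56, SE 0.08) and CDKN1A (-0.34, SE 0.10). Both comparisons share the senescent control samples.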

How the data were processed

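The labels' protocols give RNeasy extraction, DNase I digestion and KAPA RNA HyperPrep libraries. The submitters' processing notes name Bowtie2 (no version), RSEM 1.2.12 and the build hg19. What the authors deposited is a single table of counts per Ensembl gene, all whole numbers and not normalized. The annotation, the strand setting and the treatment of reads shared between genes are not given in these sources, so reads of overlapping or near-identical genes may be divided in ways that could not be checked.

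Symbols were matched to Ensembl IDs with the symbol table used here (51959 of 57736 IDs had a symbol). The filter was filterByExpr (minimum count 10), and 16760 genes passed. Counts were tested with edgeR 4.0.16 in R 4.3.3: TMM scaling, 1 coefficient per group over all 10 samples (5 residual degrees of freedom), and a two-sided quasi-likelihood F test (robust). P-values were adjusted by Benjamini-Hochberg over all tested genes. A gene is said to rise, fall or be higher or lower where its adjusted p is under 0.05. The dispersion comes from all 10 samples, so an SE does not measure the spread of the 2 groups compared alone. CPM values come from dividing the deposited counts by TMM-scaled totals; CPM is not scaled by gene length, and is given per sample. The script was tested on simulated data. The alternatives were DESeq2 1.42.0, 2 other scalings, no filter on low counts, METTL3 left out, the 2 compared groups alone, a replicate block and each sample left out in turn.

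The 56 genes, the lists of related genes and the markers were chosen from general knowledge with earlier results of these data known. Values per sample are given for 16 members on a set list, for the largest rises and falls of each comparison and for members called against the main direction; other members shown per sample were chosen after their values were seen. From a related list at most 3 genes per direction and comparison are named, those with the largest change. Replicate numbers in the titles were checked for pairing: the correlation of deviations from the group means between same-numbered samples ran from -0.12 to 0.06, so the numbers were not taken to pair samples. Promoter sequences are from RefSeq (GRCh38.p14), another build than that of the counts, and were matched by symbol. One marker is not reported here.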

Additional observations from a re-analysis of the deposited data

How the results depend on the processing

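Of 325 called pairs of a gene and a comparison, 259 kept their call under every alternative and none reversed. The counts of members called moved in 7 cases. Without control replicate 2, 1 gene was higher in senescent control (the range over the samples left out was 0 to 1) and 2 were higher in the knockout than in control (0 to 2). With the 2 compared groups alone, 1 gene was higher in the mutant knock-in than in the knockout, 14 were higher in the mutant knock-in than in senescent control, and 2 were lower in the mutant than in the wild type knock-in, as were 2 with no filter on low counts. Leaving out 1 sample gave 0 to 11 genes higher in the mutant than in the wild type knock-in (over all genes 92 to 450 in place of 865) and 0 to 2 higher in the wild type knock-in than in senescent control. METTL3 in senescent control against control ran from -0.67 to -0.40 in log2 with a sample left out, a loss of the call in 3 of 4 cases. Where a lone sample was left in a group, it was assumed to vary like the other groups.

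Uncalled single values that changed sign were, as the range with 1 sample left out, ECT2 in senescence (-0.30 to 0.20) and in the knockout against control (-0.15 to 0.35), CDC25B in the knockout (-0.050 to 0.13), KIF18A in the mutant knock-in against the knockout (-0.22 to 0.095) and KIF14 in the knockout against control (-0.47 to 0.56). KIF18A also reached 0.029 and KIF14 0.026 with upper-quartile scaling, and KIF14 0.011 with the 2 groups alone. The cause was not tested. With the replicate number as a block, 53 genes fell in the wild type knock-in, 48 rose in the knockout and 13 were higher in the mutant than in the wild type knock-in, the same counts as without it. The genes called were not all the same: under the block CCNA2 lost its call in the mutant against the wild type knock-in (adjusted p 0.0552), CENPF in the mutant knock-in against the knockout (0.0578) and TACC3 in the wild type knock-in against senescent control (0.0503). With it, 17 in place of 16 were lower in the mutant knock-in than in senescent control. Over all genes, fitting the 2 compared groups alone gave 2716 in place of 4240 genes lower in senescence, 2526 in place of 1202 higher and 3095 in place of 1444 lower in the knockout, 1884 in place of 865 higher and 2194 in place of 1238 lower in the mutant against the wild type knock-in, and 2582 in place of 4472 lower in the knockout against control. The 1238 became 773 with upper-quartile scaling and 1887 with no filter. No scaling moved the median of all genes by more than 0.1 in log2. With 2 samples a group, a gene not called may still differ, and counts as low as 6 (CDC25C) limit precision.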

Other observations

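The control samples differed among these genes in a way that was seen only after the values were compared. KIF14 stood at 12.2 and 24.3 CPM, KIF11 at 38.5 and 73.4 and MKI67 at 211 and 345 in control replicates 1 and 2. Of the 56 genes, 5 were over 1.5-fold apart between the control samples, 1 in senescent control, 0 in the knockout, 4 in the wild type knock-in and 7 in the mutant knock-in. The second replicate was the higher one for 32 of the 56 genes in control, 42 in senescent control, 5 in the knockout, 27 in the wild type knock-in and 38 in the mutant knock-in.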
